A study of Mus musculus with 10 samples.

Results

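The complement genes C3, C4b, C2, Cfb, Cfd, C1ra, C1s1, Serping1 and Cd55 were examined in cultured mouse fat cells. These 9 genes, taken by symbol and matched to Ensembl gene IDs, are 9 of the 28987 genes listed for each library. RNA was sequenced from cells of the inguinal fat pads of male C57BL/6 mice aged 6 to 8 weeks, digested, grown to confluence and labelled primary white adipocytes. The 10 libraries form 5 groups of 2, each kept for 24 h with saline, the recombinant TNF-family ligand BAFF at 500 ng/ml, the related ligand APRIL at 500 ng/ml, bacterial lipopolysaccharide (LPS) at 100 ng/ml or norepinephrine at 1 mM. The labels name no genetic change in any group. The labels give no step of adipogenic induction or purification, and nothing in them tells whether replicates are different mice or dishes. Every p-value below therefore sets a difference against a spread between these samples that may be technical. That spread may leave out variation between mice.

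Complement is a cascade of plasma proteins that tags cells and microbes, recruits leukocytes and punctures membranes. The classical pathway starts when C1q, bound to its target, activates the proteases encoded by C1ra and C1s1, which cleave C4 and C2 into a convertase that acts on C3. The alternative pathway builds its own C3 convertase from C3 and factor B (Cfb), which factor D (Cfd, adipsin) cleaves, while Serping1 (C1 inhibitor) blocks C1r and C1s, and Cd55 (decay-accelerating factor) dissociates convertases on the cell surface. The liver makes most plasma complement, and adipocytes are known as a main source of factor D.

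The genes lie on 5 chromosomes in the mouse build mm10 (GRCm38). C3 (ENSMUSG00000024164) is at chr17:57203970-57228136 on the minus strand. C4b, Cfb and C2 lie on the minus strand within the major histocompatibility region of the same chromosome, at chr17:34728380-34743882, chr17:34856374-34862518 and chr17:34862604-34898265. On that strand the annotated 3′ end of C2 lies 86 bases before the 5′ end of Cfb. C1ra (chr6:124512405-124523443, plus strand) and C1s1 (chr6:124530345-124542359, minus strand) are neighbours in opposite orientation, 6902 bases apart. Cfd is at chr10:79890853-79892655 (plus strand), Serping1 at chr2:84765387-84775444 (minus strand) and Cd55 at chr1:130439027-130462744 (minus strand). The Ensembl IDs of these 8 genes are ENSMUSG00000073418 for C4b, ENSMUSG00000090231 for Cfb, ENSMUSG00000024371 for C2, ENSMUSG00000055172 for C1ra, ENSMUSG00000038521 for C1s1, ENSMUSG00000061780 for Cfd, ENSMUSG00000023224 for Serping1 and ENSMUSG00000026399 for Cd55.

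The 250 bases before the transcription start are shown for 4 members whose levels differed in direction or by treatment: C3 and C1s1, higher with LPS, Cfd, lower with LPS, and Cd55, highest with norepinephrine. They come from RefSeq, build GRCm38.p6, which gave a promoter for 5 of the 9 members (the fifth is C1ra). Each is written 5′ to 3′ on the gene's own strand, and none overlaps an annotated exon. Capitals mark the C/EBP pattern TTNNGNAA in C3 and C1s1 and the half-site TGACG of the cAMP response element in Cd55.
C3 (chr17:57228137-57228386, minus strand): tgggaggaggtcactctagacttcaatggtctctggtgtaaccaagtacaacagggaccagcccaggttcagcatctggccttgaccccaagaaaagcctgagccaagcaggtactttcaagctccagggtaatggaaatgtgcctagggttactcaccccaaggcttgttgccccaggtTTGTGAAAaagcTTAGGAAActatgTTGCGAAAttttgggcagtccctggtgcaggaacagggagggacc
C1s1 (chr6:124542360-124542609, minus strand): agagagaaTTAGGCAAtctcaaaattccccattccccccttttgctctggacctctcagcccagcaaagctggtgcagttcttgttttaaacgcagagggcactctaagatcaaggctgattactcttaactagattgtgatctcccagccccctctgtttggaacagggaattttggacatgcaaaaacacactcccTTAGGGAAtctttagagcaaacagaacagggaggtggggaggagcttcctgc
Cfd (chr10:79890603-79890852, plus strand): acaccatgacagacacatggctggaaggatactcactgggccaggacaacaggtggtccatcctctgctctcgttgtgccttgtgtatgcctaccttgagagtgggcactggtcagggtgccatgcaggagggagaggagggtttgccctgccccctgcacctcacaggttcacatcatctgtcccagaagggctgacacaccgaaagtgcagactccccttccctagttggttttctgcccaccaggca
Cd55 (chr1:130462745-130462994, minus strand): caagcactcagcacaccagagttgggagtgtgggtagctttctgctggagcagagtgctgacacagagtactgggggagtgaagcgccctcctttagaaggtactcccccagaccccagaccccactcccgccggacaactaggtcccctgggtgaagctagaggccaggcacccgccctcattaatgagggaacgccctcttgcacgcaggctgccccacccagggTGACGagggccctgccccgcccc
In C3, 3 matches to the C/EBP pattern, TTGTGAAA, TTAGGAAA and TTGCGAAA, lie between 70 and 38 bases before the start. C1s1 has 2 matches, one between 242 and 235 bases and one between 52 and 45 bases before the start. Searched on both strands over 32851 mouse promoter windows of the same length, this pattern occurs in 36.9% and occurs at least 3 times in 2.62%. The windows of the 5 members hold no match to the NF-kB consensus, which 7.25% of all windows hold, to the STAT pattern TTCNNNGAA (7.02%), to the interferon-response pattern GAAANNGAAA (2.98%) or to the PPAR-RXR direct repeat (0.0335%). The Cd55 half-site lies 23 to 19 bases before the start and is found in 17.8% of windows. The full palindrome TGACGTCA, which contains that half-site, is in 1.55% of windows and not in that of Cd55. Both were searched after the values of Cd55 were seen. These matches describe letters in the window and not binding.

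Levels are given in TPM, the abundance of a gene's transcripts relative to all transcripts of its library, corrected for transcript length, and values of a group are in the order replicate 1, replicate 2. The sequencing depth is unknown, since no counts are given. The listed genes of a library sum to 953553 to 964726 TPM, and 12845 to 13115 of them reach 1 TPM. Differences are on the log2(TPM + 1) scale with their SE, from limma fitted to 14166 genes over all 10 libraries, and a gene is said to rise or fall where its Benjamini-Hochberg adjusted p is under 0.05. The 2 libraries labelled APRIL stood apart: they correlated with the other 8 at 0.850 to 0.886 across genes, against 0.948 to 0.991 among those 8. Their Y-linked genes summed to 0.489 to 0.775 TPM, against 93.8 to 123 TPM in the others, although all are labelled male, so they are called the libraries labelled APRIL, and results that rest on them are given apart. They also enter the pooled spread of every test, and a call of a member that appears or is lost without them is stated.

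Among the adipocyte markers of the libraries, 11 of 12 passed the filter on low values (at least 1 TPM in at least 2 libraries), and Lep, which encodes leptin, was under 1 TPM in all. Their summed level was 8682 and 9706 TPM in saline. Fibroblast and progenitor markers summed to 10316 and 9104 TPM and macrophage markers to 1180 and 394 TPM in the same libraries, so the cultures held RNA of several cell types. Most of the macrophage sum was the gene Lyz2, and without it the sum was 162 and 81.7 TPM. Of 5 hepatocyte markers Ttr was at 0 and Alb and Apoa1 were under 1 TPM in all 10 libraries, Apoa2 reached 1.88 TPM in an LPS library, and the list summed to at most 4.09 TPM. Fga reached 2.38 and 2.33 TPM in the libraries labelled APRIL, where it rose (1.56, limma adjusted p = 0.000206).

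With LPS 5 of the 9 genes were called as rising against saline and none as falling. Cfd, lower in both LPS libraries, was called as falling only when the libraries labelled APRIL were left out (limma adjusted p = 0.00486) or with the 4 compared libraries alone (0.0334). The genes that rose were Cfb, C3, C2, C1ra and C1s1, by 0.96 to 4.77 on the log2 scale. Over all genes tested 3.80% were called, 2.87% rising and 0.932% falling. The 2 groups did not overlap for 8 members, with LPS higher for 7 and lower for Cfd, where 24.2% and 25.5% of all genes were separated in these directions. The median difference of the 9 was 1.10, against -0.01 over all genes. Summed over the 9 genes, complement RNA was 1760 and 1673 TPM in saline and 4085 and 3407 TPM with LPS. All 9 members passed the filter on low values. Markers of other cells also moved with LPS: 3 of 7 tested fibroblast and progenitor markers rose and none was called as falling. Without overlap between the groups, 4 of the 7 were higher with LPS and 2 were lower. Among those that rose was Dcn, at 173 and 128 TPM in saline and 1184 and 682 with LPS. The sum of that list was 10503 and 9762 TPM with LPS. The call of Dcn was lost without LPS replicate 1 (0.0579) or saline replicate 2 (0.0717). The 1 neutrophil marker tested, S100a8, rose by 3.33 on the log2 scale to 19.5 and 13.9 TPM, with S100a9 at 0 in all libraries, and 2 of 6 smooth muscle and pericyte markers fell. The part of these in the members' levels was not tested.

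**Figure D1:**
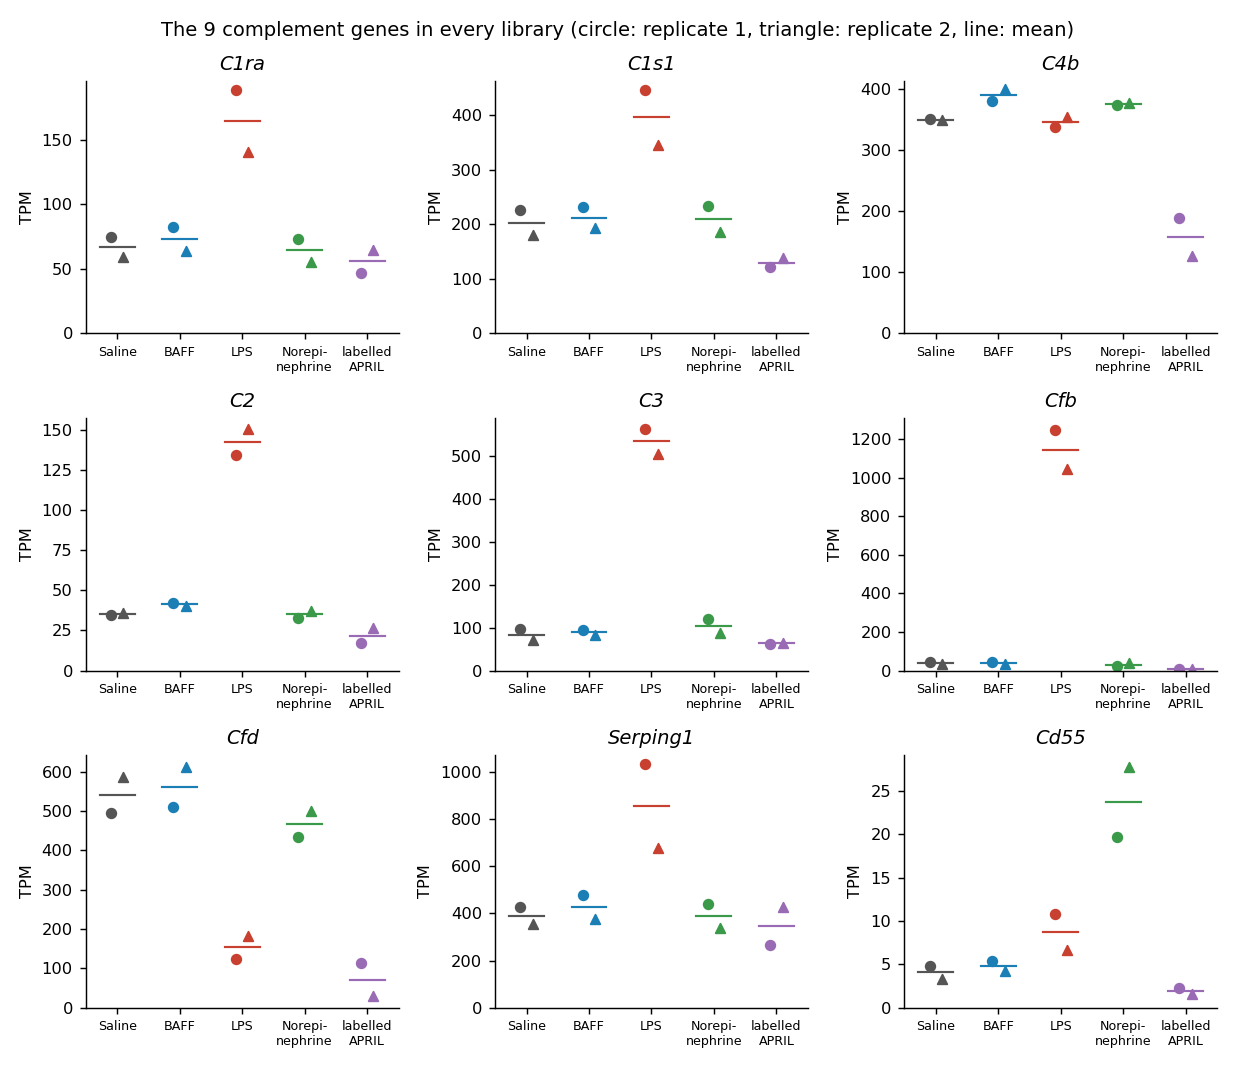
Level of each of the 9 complement genes in the 10 libraries (TPM, 1 panel a gene with its own axis from 0), by treatment group; circles are replicate 1, triangles replicate 2 and lines the group means. With LPS the points of Cfb lie at 1248 and 1043 TPM against 46.5 and 35.6 in saline, Cd55 is highest with norepinephrine, and Cfd is lower with LPS and in the libraries labelled APRIL.

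Cfb, the catalytic subunit precursor of the alternative C3 convertase, changed most. It stood at 46.5 and 35.6 TPM in saline, 46.3 and 36.1 with BAFF, 21.7 and 41.3 with norepinephrine, 1248 and 1043 with LPS, and 9.28 and 9.29 in the libraries labelled APRIL. Both LPS libraries were far above every other library, and both libraries labelled APRIL were below every other. The LPS mean was 27.9 times the saline mean, a difference of 4.77 ± 0.28 (SE, limma adjusted p = 0.000414), the 13th largest rise among the 14166 genes. Its level moved from the 80.4th percentile of tested genes in saline to the 99.3rd with LPS. Of the 31-base words of its transcripts 75.5% also occur in Gm20547, an annotated read-through of Cfb and C2, but Gm20547 was at 1.88 TPM or less in every library.

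C3, the central component on which both convertases act, was 97.3 and 70.2 TPM in saline, 95.4 and 83.7 with BAFF, 120 and 87.8 with norepinephrine, 562 and 505 with LPS, and 62.3 and 64.9 in the libraries labelled APRIL. Only the LPS libraries stood clear of saline on the high side, and the norepinephrine and BAFF libraries overlapped saline. The difference between LPS and saline was 2.67 ± 0.19 (limma adjusted p = 0.000683), a ratio of means of 6.37. None of its 31-base words occur in another gene's transcripts.

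C2, which supplies the protease of the classical C3 convertase, was 34.8 and 35.8 TPM in saline, 42.0 and 40.5 with BAFF, 32.8 and 37.2 with norepinephrine, 134 and 151 with LPS, and 17.0 and 26.3 in the libraries labelled APRIL. The LPS libraries were again the highest and did not overlap any other group. The difference from saline was 1.98 ± 0.18 (limma adjusted p = 0.00181) and the ratio of means 4.04. The rises of Cfb, C3 and C2 with LPS were called under every one of the 15 alternative settings run for that comparison.

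C4b, the other subunit of the same convertase, showed no such rise. Its level was 352 and 349 TPM in saline and 338 and 355 with LPS, groups that overlapped, with a difference of -0.02 ± 0.17 (95% interval -0.40 to 0.37, limma adjusted p = 0.982). It was 381 and 400 TPM with BAFF, 374 and 378 with norepinephrine and 189 and 128 in the libraries labelled APRIL. The paralogue C4a shares 48.3% of the 31-base words of C4b, so the split of reads between them is uncertain. C4a was listed at 10.2 to 21.6 TPM over the 10 libraries, well below C4b in each.

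The proteases of the C1 complex rose together and less than C2. C1ra was 74.5 and 59.4 TPM in saline and 188 and 141 with LPS, which did not overlap, with a difference of 1.28 ± 0.24 (limma adjusted p = 0.0290). C1s1 was 226 and 180 TPM in saline and 446 and 345 with LPS, also without overlap, with a difference of 0.96 ± 0.19 (limma adjusted p = 0.0355). With BAFF and norepinephrine both genes overlapped saline, C1ra at 55.2 to 82.1 TPM and C1s1 at 185 to 233 TPM. Both calls rested on every library compared. Without LPS replicate 1, LPS replicate 2, saline replicate 1 or saline replicate 2, the limma adjusted p was 0.188, 0.0521, 0.0860 and 0.208 for C1ra and 0.215, 0.0538, 0.0832 and 0.248 for C1s1, so that 3 of the 9 genes stayed called without any 1 of these libraries. With the 4 compared libraries alone it was 0.0570 for C1ra and 0.0845 for C1s1, without the filter on low values 0.0680 and 0.0775, and C1s1 was also lost under median-ratio scaling (0.0540). C1ra shares 56.9% of its 31-base words with C1rb, which is not among the genes listed for the libraries, so its part in the C1ra level is unknown. C1s1 shares 33.5% with C1s2, which was at 1.00 TPM or less.

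Serping1, the inhibitor of these proteases, was among the highest members in every group. It was 428 and 354 TPM in saline, 476 and 376 with BAFF, 442 and 337 with norepinephrine, 1032 and 678 with LPS, and 264 and 426 in the libraries labelled APRIL. The LPS libraries were the highest and did not overlap saline, with a difference of 1.10 ± 0.29. This did not pass the threshold over all 10 libraries (limma adjusted p = 0.0896), and did so without the libraries labelled APRIL (0.0480).

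Cfd was the one member with lower RNA in both LPS libraries than in both saline libraries. It was 496 and 585 TPM in saline, 511 and 612 with BAFF, 435 and 499 with norepinephrine, 125 and 182 with LPS, and 113 and 30.2 in the libraries labelled APRIL. The saline mean was 3.53 times the LPS mean, a difference of -1.83 ± 0.51. It was not called over all 10 libraries (limma adjusted p = 0.108), where the pooled spread includes the libraries labelled APRIL, which differed from each other for this gene more than the replicates of any other group on the log2 scale. Without those 2 libraries the adjusted p was 0.00486, and with the 4 compared libraries alone 0.0334. The adipocyte marker sum was 5949 and 6517 TPM with LPS, also below the 8682 and 9706 TPM of saline. In bulk RNA, fewer cells of a type and less RNA per cell cannot be told apart.

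Set against Adipoq, the adipokine gene for adiponectin, Cfd was lower as well. The ratio of Cfd to Adipoq was 0.536 and 0.551 in saline, 0.557 and 0.558 with BAFF, 0.474 and 0.534 with norepinephrine, and 0.329 and 0.331 with LPS. The LPS ratios lay below those of all 3 of these groups, so Cfd and Adipoq did not change by equal factors. In the libraries labelled APRIL the ratio was 0.378 and 0.301. With norepinephrine the adipocyte marker sum was 16406 and 16708 TPM, against 8682 and 9706 in saline, while Adipoq was 918 and 934. The ratio therefore depends on the marker set below Cfd, and Adipoq was chosen after its values were seen. Adipoq itself was 925 and 1062 TPM in saline and 379 and 549 with LPS, a difference of -1.12 ± 0.44 (limma adjusted p = 0.254, and 0.0202 without the libraries labelled APRIL).

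Cd55, the only membrane regulator among the 9 and the least abundant, responded most to norepinephrine. It was 4.82 and 3.32 TPM in saline, 5.36 and 4.25 with BAFF, 10.8 and 6.70 with LPS, 19.7 and 27.8 with norepinephrine, and 2.29 and 1.62 in the libraries labelled APRIL. The norepinephrine libraries were above all others, followed by LPS, which did not overlap saline either, while BAFF and saline overlapped. The norepinephrine mean was 5.84 times that of saline, a difference of 2.28 ± 0.27 (limma adjusted p = 0.0258), the 16th largest rise of that comparison. The difference between LPS and saline was 0.93 ± 0.27 and did not pass (limma adjusted p = 0.123). Set directly against norepinephrine, LPS was lower by 1.36 ± 0.27 on the log2 scale (limma adjusted p = 0.0266). The norepinephrine call was lost when 1 library was left out: the adjusted p was 0.117 and 0.140 without norepinephrine replicate 1 or 2, and 0.149 and 0.163 without saline replicate 1 or 2. The direct comparison lost its call likewise, with 0.0518 and 0.117 without LPS replicate 1 or 2 and 0.0710 and 0.127 without norepinephrine replicate 1 or 2. Its transcripts share 11.2% of their 31-base words with Cd55b, which was at 0.13 TPM or less in every library.

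**Figure D2:**
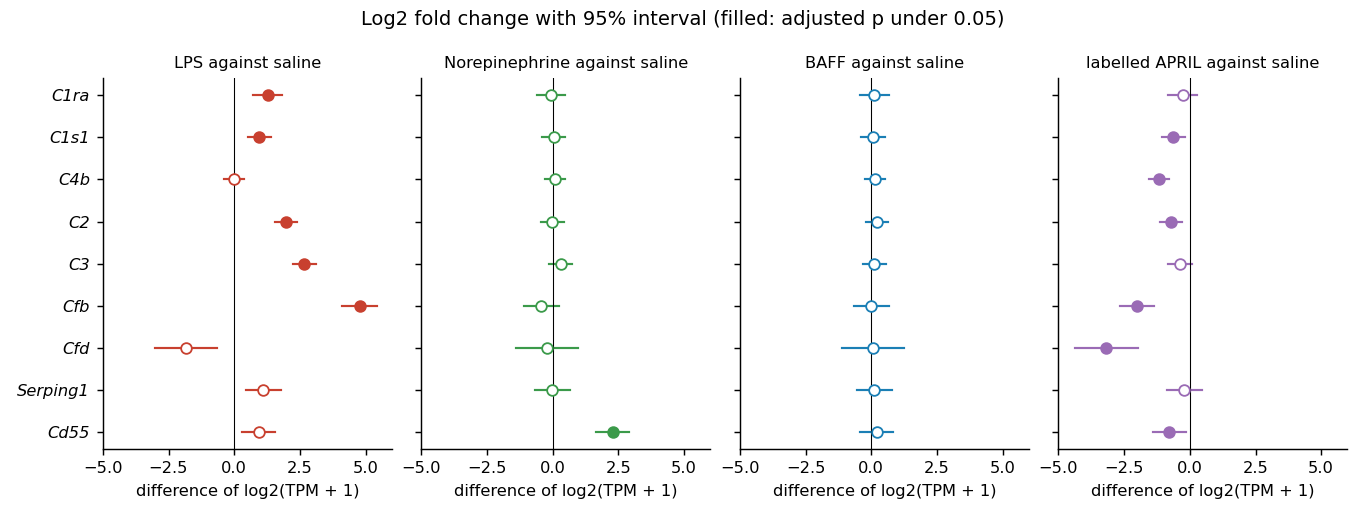
Difference of each treatment from saline for the 9 genes on the log2(TPM + 1) scale, with 95% intervals from limma; filled points have an adjusted p under 0.05. LPS raised Cfb by 4.77 and C3 by 2.67, norepinephrine raised Cd55 by 2.28, and all 9 BAFF intervals span 0.

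None of the other 8 members was called with norepinephrine. The share of all genes called in that comparison was 0.699%, with 0.614% rising and 0.0847% falling, and the median difference of the 9 was -0.01, against 0.04 over all genes. C3 differed by 0.31 ± 0.19 and Cfb by -0.43 ± 0.28 (limma adjusted p = 0.441 and 0.471), and the groups overlapped for both. C4b was higher in both norepinephrine libraries than in both saline libraries, as was Cd55, a separation that 34.0% of all genes showed in this direction. Intervals were narrowest for C4b, at -0.28 to 0.49, and widest for Cfd, at -1.40 to 0.98.

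A direct comparison of LPS with norepinephrine tested whether the 2 treatments differed. Cfb (5.20 ± 0.28), C3 (2.37 ± 0.19), C2 (1.997 ± 0.18), C1ra (1.34 ± 0.24) and C1s1 (0.91 ± 0.19) were higher with LPS and Cd55 was lower, with limma adjusted p from 0.000218 for Cfb to 0.0300 for C1s1. That is 6 of 9 members, over a background of 7.81% of genes called, 3.62% higher and 4.19% lower with LPS. Cfd (-1.62 ± 0.51) and Serping1 (1.11 ± 0.29) did not pass (adjusted p = 0.10 and 0.0580), and both did without the libraries labelled APRIL (0.00397 and 0.0271). With the 4 compared libraries alone, C1s1 lost its call (0.0734), as did Cd55 (0.0776), and Cfd gained one (0.0327). Without 1 of the 4 libraries, 3 or 4 members stayed called. Without LPS replicate 1 the adjusted p was 0.0982 for C1ra and 0.134 for C1s1, and without norepinephrine replicate 1 it was 0.0535 and 0.0769. Without norepinephrine replicate 2 it was 0.0900 and 0.141, and without LPS replicate 2 C1s1 alone of this pair was lost, at 0.0537.

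None of the 9 genes passed the test with BAFF. Differences ran from 0.00 for Cfb to 0.22 for C2, with a median of 0.12 against 0.11 over all genes, and the limma adjusted p was 0.996 or more for each. The count called was 0, and 0 members had an unadjusted p under 0.05. In this comparison 0.0141% of genes were called, all of them falls. The widest 95% interval, for Cfd, ran from -1.13 to 1.24, and that of C4b from -0.23 to 0.54. These intervals are not adjusted for the number of genes tested, and differences inside them are not excluded. The libraries labelled APRIL enter the width of the intervals: the SE of a difference in Cfd was 0.51 with them and 0.20 without. C2 and C4b were higher in both BAFF libraries than in both saline libraries, as were 40.4% of all genes.

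LPS was also set directly against BAFF, and the difference itself passed for 5 members. Cfb (4.77 ± 0.28), C3 (2.56 ± 0.19), C2 (1.76 ± 0.18), C1ra (1.16 ± 0.24) and C1s1 (0.89 ± 0.19) were higher with LPS, with limma adjusted p of 0.000411, 0.000908, 0.00306, 0.0445 and 0.0496, where 3.36% of all genes were called, 2.06% higher and 1.30% lower. The calls of C1ra and C1s1 were lost without LPS replicate 1 (0.272 and 0.294), LPS replicate 2 (0.0625 and 0.0606), BAFF replicate 1 (0.128 and 0.147) or BAFF replicate 2 (0.279 and 0.299), and with the 4 compared libraries alone (0.0577 and 0.0725). C1s1 also lost its call with a pseudocount of 0.1 or 0.5 in place of 1 (0.0545 and 0.0506). Cfd (-1.89 ± 0.51) did not pass (adjusted p = 0.104), and did so without the libraries labelled APRIL (0.00483) and with the 4 compared libraries alone (0.0230).

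In the libraries labelled APRIL 6 of the 9 genes were lower than in saline and none was higher. The background was large, with 58.1% of all genes called, 25.0% falling and 33.1% rising. The falls were -3.18 ± 0.51 for Cfd, -2.02 ± 0.28 for Cfb, -1.17 ± 0.17 for C4b, -0.77 ± 0.27 for Cd55, -0.71 ± 0.18 for C2 and -0.63 ± 0.19 for C1s1 (limma adjusted p from 0.000605 for Cfb to 0.0396 for Cd55). C3 (-0.37), C1ra (-0.26) and Serping1 (-0.21) did not pass (adjusted p = 0.130, 0.370 and 0.551), and C1ra and Serping1 overlapped saline. The other 7 members lay below both saline libraries, as did 35.2% of all genes. The median was -0.71 against 0.08 over all genes. Cfd, Cfb and C4b kept their calls without any 1 library. The call of C1s1 was lost without the labelled replicate 1 (0.0913) or saline replicate 1 (0.132), that of C2 without saline replicate 2 (0.0549), and that of Cd55 without the labelled replicate 2 (0.165) or saline replicate 1 (0.204), while C3 was called without saline replicate 2 (0.0463). With the 4 compared libraries alone, C2 (0.0578) and Cd55 (0.0507) were not called. Fibroblast and progenitor markers summed to 2074 and 2614 TPM in these libraries and adipocyte markers to 6755 and 2993 TPM, both below saline, and the part of this in the members' levels was not tested.

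BAFF set against the libraries labelled APRIL gave 6 members higher with BAFF, where 57.3% of all genes were called, 28.3% higher and 29.0% lower. These were Cfd (3.23 ± 0.51), Cfb (2.02 ± 0.28), C4b (1.33 ± 0.17), Cd55 (0.98 ± 0.27), C2 (0.93 ± 0.18) and C1s1 (0.70 ± 0.19), with limma adjusted p from 0.000370 for C4b to 0.0157 for Cd55. C1s1 lost its call without the labelled replicate 1 (0.0650) or BAFF replicate 1 (0.0892), and Cd55 without the labelled replicate 2 (0.0806) or BAFF replicate 1 (0.0910). C1ra and Serping1 overlapped between the 2 groups, and C3, at 95.4 and 83.7 against 62.3 and 64.9 TPM, missed the threshold (0.48 ± 0.19, adjusted p = 0.0605) and passed it with the 4 compared libraries alone (0.0336).

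Ratios within a library show where members moved unequally. The ratio of C2 to C4b, the subunits of the classical C3 convertase, was 0.0989 and 0.102 in saline and 0.398 and 0.425 with LPS. It was 0.110 and 0.101 with BAFF, 0.0875 and 0.0983 with norepinephrine, and 0.0900 and 0.206 in the libraries labelled APRIL. The ratio of Cfb to its neighbour C2 was 1.34 and 0.997 in saline, 1.10 and 0.889 with BAFF, 0.662 and 1.11 with norepinephrine, and 9.28 and 6.93 with LPS, the highest of all groups. The ratio of C3 to C4b was 0.276 and 0.201 in saline and 1.66 and 1.42 with LPS, so C3 passed C4b in level there and in no other library. C1s1 exceeded C1ra in each library. Its ratio to C1ra was 3.03 and 3.02 in saline, 2.81 and 3.01 with BAFF, 3.18 and 3.36 with norepinephrine, and 2.37 and 2.45 with LPS, where it was lower than in each of these groups. In the libraries labelled APRIL it was 2.57 and 2.14. These ratios carry no test.

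**Figure D3:**
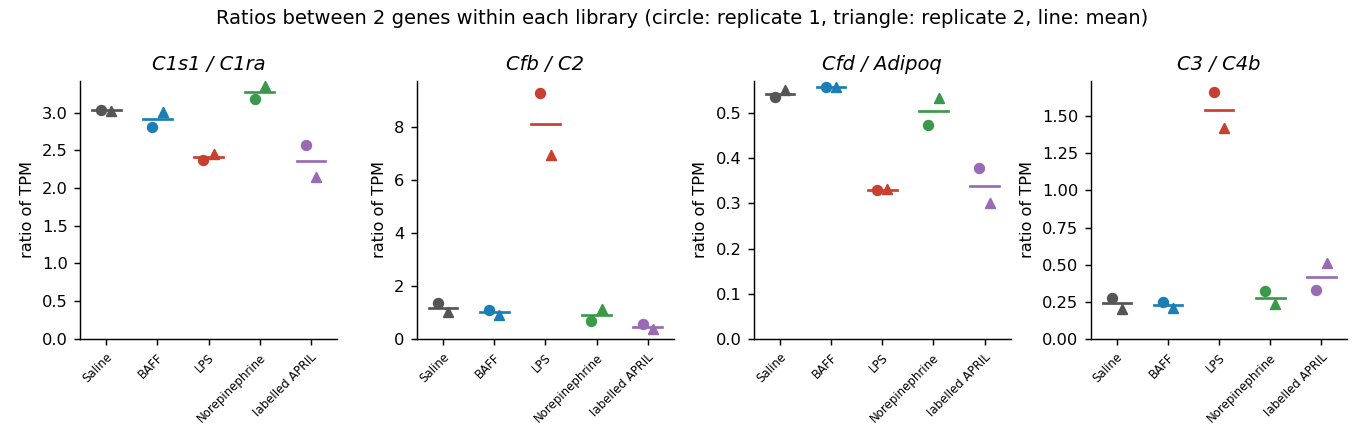
Ratios of the TPM of 2 genes within each library for C1s1 to C1ra, Cfb to C2, Cfd to Adipoq and C3 to C4b, by group; circles are replicate 1, triangles replicate 2 and lines the means. With LPS the ratio of Cfb to C2 is 9.28 and 6.93 and that of Cfd to Adipoq 0.329 and 0.331.

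The rest of the pathway was read from a list of 58 complement genes, of which 57 were listed for the libraries and 32 passed the filter on low values, the 9 members included. Of the 23 other genes tested, 1 rose with LPS and none fell, where 2.87% of all genes rose and 0.932% fell. That gene was Clu, which encodes clusterin, a fluid-phase inhibitor of the terminal complex. Clu was 23.3 and 16.4 TPM in saline, 90.1 and 78.6 with LPS, 7.87 and 7.52 with norepinephrine, 23.6 and 18.3 with BAFF, and 6.43 and 5.81 in the libraries labelled APRIL. LPS libraries were the highest, and norepinephrine libraries lay below saline, so it moved in opposite directions with the 2 treatments. The differences were 2.05 ± 0.19 with LPS (limma adjusted p = 0.00165) and -1.24 ± 0.19 with norepinephrine (0.0404). Clu was not called with norepinephrine when the 4 compared libraries were fitted alone (limma adjusted p = 0.0620) or without the filter on low values (0.0825). The same held without the mean-variance trend (0.0516) and with a pseudocount of 0.1 (0.0504). The call with norepinephrine was lost without norepinephrine replicate 1 or 2 (0.201 and 0.159) or saline replicate 1 or 2 (0.221 and 0.153).

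By role, LPS raised 3 of the 9 tested genes of the classical initiation set, 2 of 4 of the alternative pathway and 1 of 4 soluble regulators. Those called in the classical and alternative sets are all members, so these counts restate the member results. None of the 3 lectin, 2 terminal, 5 membrane regulator and 5 receptor genes tested was called. Over all genes 3.80% were called and 2.87% rose, so sets this small can hold no call at that share. Without the 9 members the list's median difference with LPS was -0.20, against -0.01 over all genes. C1rl, a C1r-like protease gene, was 7.49 and 7.72 TPM in saline, 12.5 and 11.1 with LPS and 13.0 and 13.8 with norepinephrine. Both treated groups were above saline and neither was called (adjusted p = 0.0858 and 0.0671), though both were without the libraries labelled APRIL (0.0410 and 0.0227). The rodent membrane regulator gene Cr1l, at 49.9 and 51.2 TPM in saline and 53.5 and 48.1 with LPS, exceeded Cd55 in every library and overlapped between these groups. Of the terminal pathway only Hc, which encodes C5, and C8g passed the filter, and both had group means of at most 6.70 TPM.

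**Figure D4:**
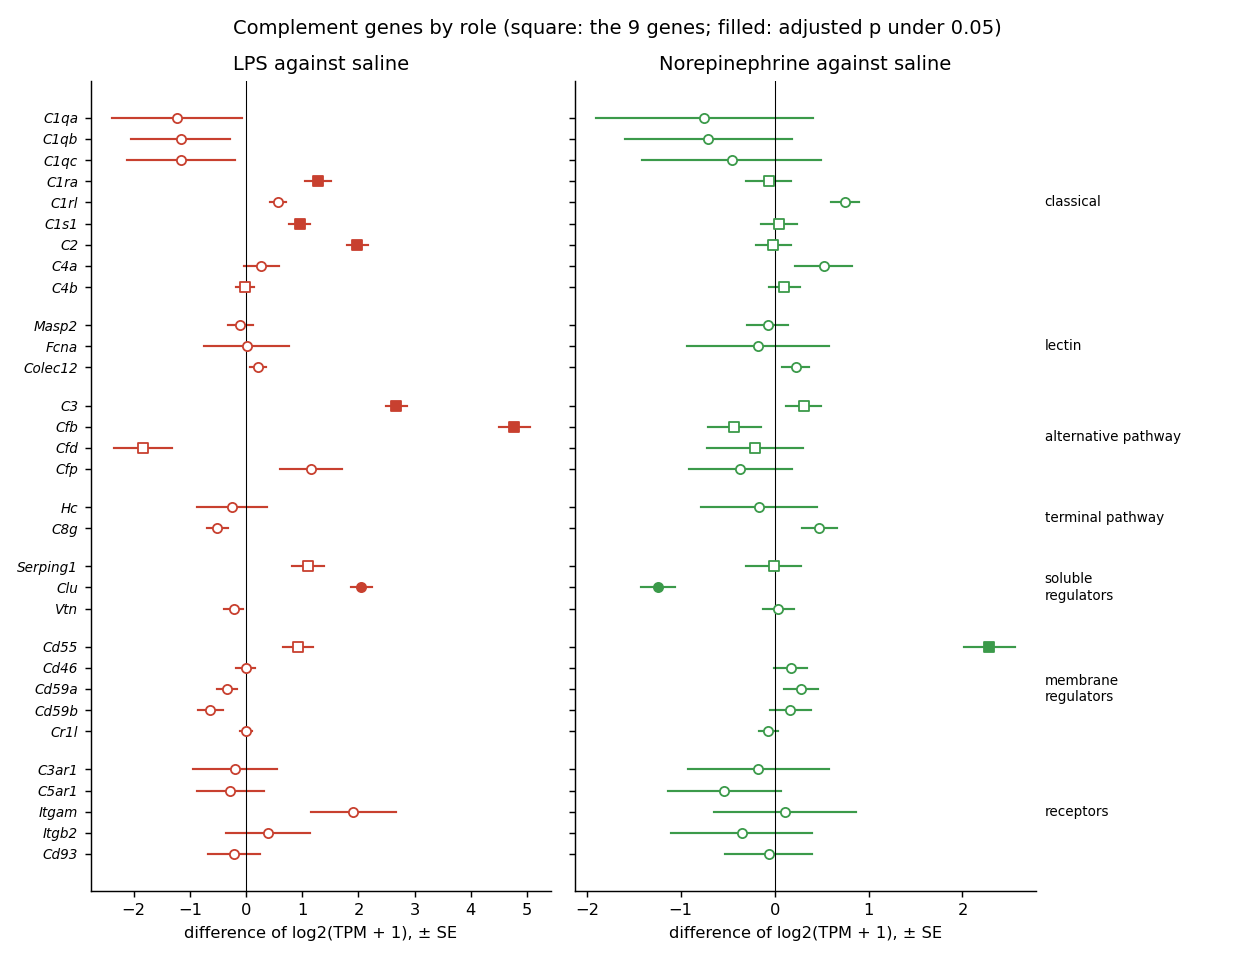
Difference of LPS and of norepinephrine from saline (log2(TPM + 1) scale) for tested genes of the complement list, grouped by role; bars are ± SE, squares are the 9 members and filled points have an adjusted p under 0.05. Clu is at 2.05 with LPS and -1.24 with norepinephrine, and genes of the lectin, terminal and receptor sets carry no filled point. Over all genes 3.80% were called with LPS and 0.699% with norepinephrine.

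In the libraries labelled APRIL 7 of those 23 genes fell and 1, the lectin-pathway protease gene Masp2, rose, where 25.0% of all genes fell and 33.1% rose. Among those that fell were Clu, Colec12, Cr1l, Cd59a, Cd93 and C5ar1. The receptor gene C5ar1 was 0.0860 and 0.136 TPM, where saline had 10.2 and 3.84 TPM. None of the 23 was called with BAFF, where 0.0141% of all genes were called.

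Leukocyte genes within the list differed between the replicates of a group. The 3 C1q chain genes C1qa, C1qb and C1qc, which macrophages express strongly, summed to 132 and 40.3 TPM in saline, 122 and 44.0 with BAFF, 87.5 and 23.2 with norepinephrine and 79.4 and 10.7 with LPS. Replicate 1 was higher than replicate 2 in each of these 4 groups. The macrophage marker sum had the same order, at 1180 and 394 TPM in saline, 995 and 453 with BAFF, 1203 and 269 with norepinephrine and 1424 and 374 with LPS. Without Lyz2 that sum kept the order, at 162 and 81.7 TPM in saline, 153 and 94.1 with BAFF, 173 and 50.5 with norepinephrine and 232 and 69.7 with LPS. The marker genes Ptprc and Cd163 were under 1 TPM in all libraries. Cfp, which encodes properdin, and Itgam, a subunit of complement receptor 3, were likewise unequal with LPS, at 62.4 and 18.0 TPM and at 62.9 and 20.7 TPM (limma adjusted p = 0.360 and 0.259 against saline). Of the members with LPS, Serping1 (1032 and 678 TPM), Cd55 (10.8 and 6.70), C1ra (188 and 141), C1s1 (446 and 345), Cfb (1248 and 1043) and C3 (562 and 505) were also higher in replicate 1, by smaller factors than the macrophage sum. C2, C4b and Cfd were higher in replicate 2.

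**Figure D5:**
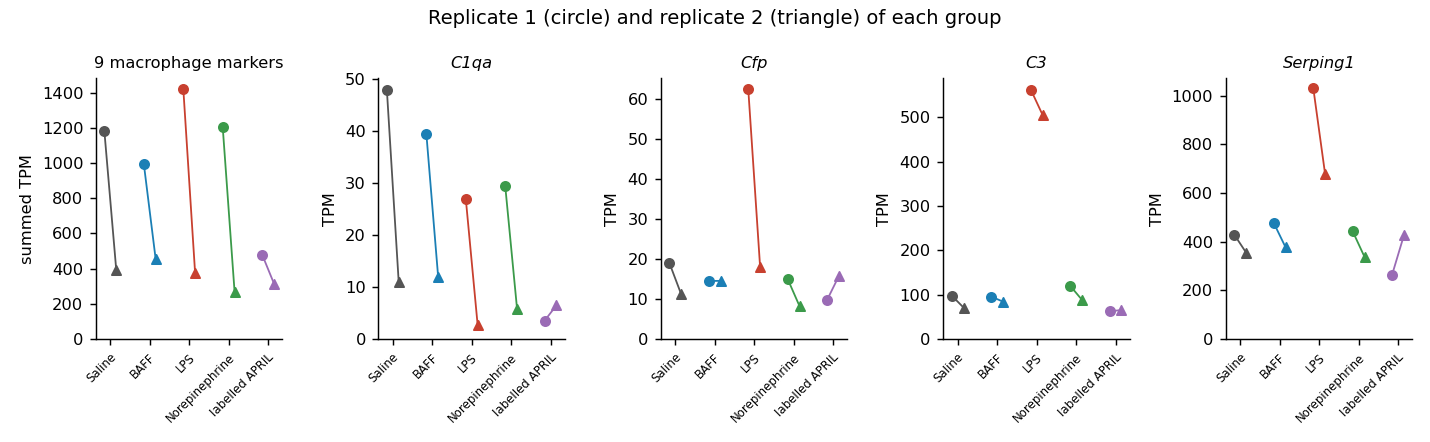
Summed macrophage markers and single complement genes in each library (TPM); circles are replicate 1 and triangles replicate 2. The macrophage sum with LPS is 1424 and 374 TPM, while C3 in the same libraries is 562 and 505 TPM.

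Of a list of 24 regulators and inducers of complement transcription, 22 were tested and 10 rose with LPS, where 2.87% of all genes rose. Il6, a cytokine that drives acute-phase genes, was 3.98 and 6.06 TPM in saline and 177 and 102 with LPS (4.51, limma adjusted p = 0.00104). Nfkbiz, an NF-kB cofactor gene, was 7.92 and 6.996 TPM in saline and 24.6 and 27.3 with LPS (1.67, adjusted p = 0.000507). No gene of that list was called with BAFF or norepinephrine, where 0.0141% and 0.699% of all genes were called. In the libraries labelled APRIL 17 rose and 1 fell, against 33.1% and 25.0% of all genes. Il6 was 65.8 and 128 TPM there. Any bearing of the listed regulators on the members' levels was not tested.

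Genes whose levels over the 10 libraries ran most like 4 members were ranked by Pearson r of log2(TPM + 1) among 9854 genes. They were Clmp (0.992), Rab32 (0.989) and Adora2b (0.976) for C3, and Cxcl5 (0.989), Cxcl9 (0.985) and C2 (0.982) for Cfb. For Cfd they were Prnp (0.996), Oxct1 (0.994) and Cdsn (0.992), and for Serping1 C1ra (0.986), Wfdc17 (0.972) and Dcn (0.966). All pairs share the same libraries and their group differences. Over the 8 libraries not labelled APRIL, 3 of these 12 were again among the 3 most alike, so the ranking depended on those 2 libraries.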

How the data were processed

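RNA was sequenced from 10 libraries, 5 groups of 2. The authors deposited TPM per Ensembl gene, per the file headers, and the submitters' processing notes name kallisto (version not given) and the mm10 build. The annotation release, the summing of transcripts to genes and read depth are not given in the sources used here. Symbols and positions came from GENCODE M21, which matched 27458 of 28987 IDs. The 14166 genes that reached 1 TPM in 2 or more libraries entered limma 3.58.1 (R 4.3.3) as log2(TPM + 1), with group means and a mean-variance trend. The 10 libraries shared 1 fit, which leaves 5 residual degrees of freedom, and p-values were adjusted by Benjamini-Hochberg within each of 7 comparisons, with a threshold of 0.05. A fold change on this scale understates the change of low genes. The members, lists and rules were chosen with earlier results of these data known. Named are all members, genes of the wider complement list and up to 4 of smallest p of the regulator list. Also named are the 3 genes most like each of 4 members. Adipoq, Dcn, S100a8, Fga and Lyz2 were added after their values were seen. Some genes of the wider list are counted but not reported by name here. Alternatives were other filters, pseudocounts of 0.1 and 0.5, fewer libraries, a replicate block, other scaling and no trend. The fit was tested on simulated data. Shared 31-base words were counted in GENCODE transcripts, and motifs in RefSeq promoters. Figures used matplotlib 3.10.9 in Python 3.11.15.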

Additional observations from a re-analysis of the deposited data

How the results depend on the processing

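The rises of Cfb, C3 and C2 with LPS kept direction and call under all 15 alternatives, and no called difference of a member changed sign under any setting run. Of 29 calls over the 63 pairs of member and comparison, 16 held in every alternative. With LPS against saline 5 members were called; without the filter on low values 3 were, and leaving out 1 library gave 3 to 3. LPS against BAFF gave 5, and 3 without the filter, 3 without the mean-variance trend and 3 to 3 with 1 library left out. LPS against norepinephrine gave 6, and 3 to 4 with 1 library left out. Norepinephrine against saline gave 1, and 0 without the filter and 0 to 0 with 1 library left out. Fewer libraries, or more genes tested, enter these settings by construction, and otherwise the cause was not tested.

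The replicate block gave 5, 0, 1 and 6 members called for LPS, BAFF, norepinephrine and the libraries labelled APRIL against saline, against 5, 0, 1 and 6 without it, and 7 in place of 6 for BAFF against the libraries labelled APRIL. The numbers are shared labels and nothing says that they pair the libraries: deviations of same-numbered libraries correlated at 0.272 to 0.479 between groups other than APRIL, and at -0.108 to 0.0264 with it. Leaving out the libraries labelled APRIL gave 7 members called with LPS against saline (6 higher, 1 lower), and adding the replicate block to that, chosen after the data were seen, also gave 7. Over all genes, 539 were called with LPS against saline, 946 without the libraries labelled APRIL, 366 with the 4 libraries alone, 1705 with the added block and 112 to 335 with 1 library left out. For norepinephrine the count was 99, and 854 without those libraries. Median-ratio scaling moved the split of rising and falling genes in the libraries labelled APRIL from 4694 and 3542 to 4161 and 4276. Leaving out mitochondrially encoded genes moved it for LPS from 407 and 132 to 352 and 182. Read depth is unknown, and the main tests rest on the pooled spread of 5 groups of 2 libraries, with 5 residual degrees of freedom.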
